A study of Mus musculus with 7 samples.

Results

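The nuclei described here are excitatory neurons of the mouse brain that carried transcripts of Il1rapl2, Rspo2 and related deep-layer genes. They were chosen by their own UMI counts (UMIs are unique molecular identifiers, which count captured transcripts). A nucleus was a member when it held at least 2 UMIs of Slc17a7, the vesicular glutamate transporter of forebrain excitatory neurons, and at least 4 of the 6 genes Il1rapl2, Hs3st2, Rspo2, Rxfp2, Bmpr1b and Dnah14. It also had to show no more than 2 of the 4 layer 6 genes Foxp2, Hs3st4, Syt6 and Arhgap25, and no more than 2 of the 4 layer 4/5 genes Rorb, Adam33, Pamr1 and Ovol2. Of 58169 nuclei that passed quality control, 11751 met the Slc17a7 limit and 468 were members, which is 3.98% of the Slc17a7 nuclei and 0.805% of all nuclei that passed. At least 4 of the 6 selection markers were found in 580 Slc17a7 nuclei, of which 112 were left out for layer 6 or layer 4/5 genes.

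The 7 single-nucleus libraries came from 7 mice of genotype 5xFAD +/-, aged 6 months, 1 mouse a library. At 4 months the mice had been given an adeno-associated virus (AAV) into the blood behind the eye, and tissue was taken 2 months later. The ANGPT2 AAV group holds a male and a female in batch 1 and a male and a female in batch 2, and the control AAV group holds a male and a female in batch 1 and a male in batch 2. 5xFAD transgenes are driven in neurons by the Thy1 promoter and produce amyloid plaques, and all 7 mice carried them, so no group shows the brain without amyloid. The labels do not name the promoter, serotype or target cell of either vector. By the labels the tissue was subcortex, thalamus and hippocampus.

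Excitatory neurons of the cerebral cortex differ by layer and by target. Intratelencephalic cells project within the cortex and striatum, extratelencephalic cells of layer 5 reach the brainstem, and corticothalamic cells of layer 6 reach the thalamus. The claustrum, a thin sheet beneath the insular cortex, holds neurons that share much of their transcriptome with a layer 6 type marked by Car3. Among the selection markers, Il1rapl2 encodes a synaptic adhesion protein of the interleukin-1 receptor family, and Rspo2 a secreted R-spondin that strengthens Wnt signalling through Lgr receptors. Hs3st2 adds 3-O-sulfate to heparan sulfate, Rxfp2 is the receptor of insulin-like peptide 3, Bmpr1b is a type I receptor of bone morphogenetic proteins, and Dnah14 is a dynein heavy chain. ANGPT2, or angiopoietin-2, is released by endothelial cells and acts on TIE2, a receptor of blood vessels encoded by Tek.

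Total UMIs ranged from 25466033 to 100529717 per library, and any pair of libraries shared 63 to 134 cell barcodes. Members numbered 113, 90, 29 and 24 in ANGPT2 AAV libraries (male and female of batch 1, then male and female of batch 2), against 105, 88 and 19 in control AAV libraries (male and female of batch 1, then male of batch 2). All values by library below follow this order. Their summed UMIs were 2044052, 1560960, 321892 and 201135 in ANGPT2 AAV libraries, against 2190355, 1435997 and 116398 in control AAV libraries. The batch 2 libraries thus rest on few members and few UMIs, and the control AAV group has only 1 of them. Median UMIs per member were 17132, 17357, 10530 and 7821.5 in ANGPT2 AAV libraries, against 19062, 15438 and 5831 in control AAV libraries. Members had a median of 16316.5 UMIs, and other Slc17a7 nuclei had a median of 13419, and the rule needs several genes detected in 1 nucleus. Doublet calls covered 55 members, which is 11.8%, and 10.4% of all Slc17a7 nuclei.

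In the members, the genes used to choose them had the following levels, given as CPM (summed UMIs of a gene scaled to a common library total, mean ± SD over 7 libraries) and as a description with no test. Il1rapl2 stood at 1461 ± 401 CPM in members and 338 ± 49.2 CPM in other Slc17a7 nuclei. Rspo2 stood at 212 ± 88.5 CPM in members and 33.4 ± 16.2 CPM in other Slc17a7 nuclei. Hs3st2 averaged 385 ± 80.8 CPM in members and 147 ± 47.1 CPM in other Slc17a7 nuclei, and Bmpr1b 274 ± 125 CPM in members and 40.2 ± 24.8 CPM in other Slc17a7 nuclei. Dnah14 averaged 70.4 ± 18.4 CPM in members and 5.17 ± 2.14 CPM in other Slc17a7 nuclei, and Rxfp2 31.4 ± 14.99 CPM in members and 3.78 ± 2.55 CPM in other Slc17a7 nuclei. These markers were unevenly detected. Il1rapl2 had a UMI in 97.4% of members, Hs3st2 in 97.01%, Rspo2 in 88.7% and Bmpr1b in 75.4%, while Dnah14 had a UMI in 41.9% and Rxfp2 in 22.9%. In 2411 oligodendrocytes, which should lack these genes and were much shallower at a median of 2076 UMIs, the shares were 6.72% for Il1rapl2, 2.16% for Hs3st2, 1.08% for Rspo2, 2.70% for Bmpr1b, 3.03% for Dnah14 and 0.0830% for Rxfp2.

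By library, Il1rapl2 in members was 1291, 1538, 2218 and 1233 CPM in ANGPT2 AAV libraries, against 1686, 998 and 1263 CPM in control AAV libraries. Rspo2 in members was 204, 173, 146 and 219 CPM in ANGPT2 AAV libraries, against 126, 223 and 395 CPM in control AAV libraries. Both groups overlap for these genes, and every library lay above its own other Slc17a7 nuclei, which follows from the rule. Rxfp2 varied widely among libraries, at 31.3, 13.5, 40.4 and 34.8 CPM in ANGPT2 AAV libraries, against 47.5, 43.9 and 8.59 CPM in control AAV libraries. Of the layer 6 genes that the rule limits, Foxp2, a transcription factor of corticothalamic neurons, stood at 17.8 ± 11.4 CPM in members and 179 ± 44.9 CPM in other Slc17a7 nuclei, and Hs3st4 at 295 ± 146 CPM in members and 1024 ± 197 CPM in other Slc17a7 nuclei. The layer 4/5 gene Rorb, a nuclear receptor, stood at 88.3 ± 29.6 CPM in members and 197 ± 37.2 CPM in other Slc17a7 nuclei. Some limited genes were about as high in members as elsewhere. Arhgap25 was at 30.5 CPM in members and 24.5 CPM in other Slc17a7 nuclei, Pamr1 at 23.5 CPM in members and 29.6 CPM in other Slc17a7 nuclei and Ovol2 at 18.3 CPM in members and 14.8 CPM in other Slc17a7 nuclei, whereas Syt6 was at 3.06 CPM in members and 28.6 CPM in other Slc17a7 nuclei and Adam33 at 3.93 CPM in members and 17.5 CPM in other Slc17a7 nuclei.

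**Figure D1:**
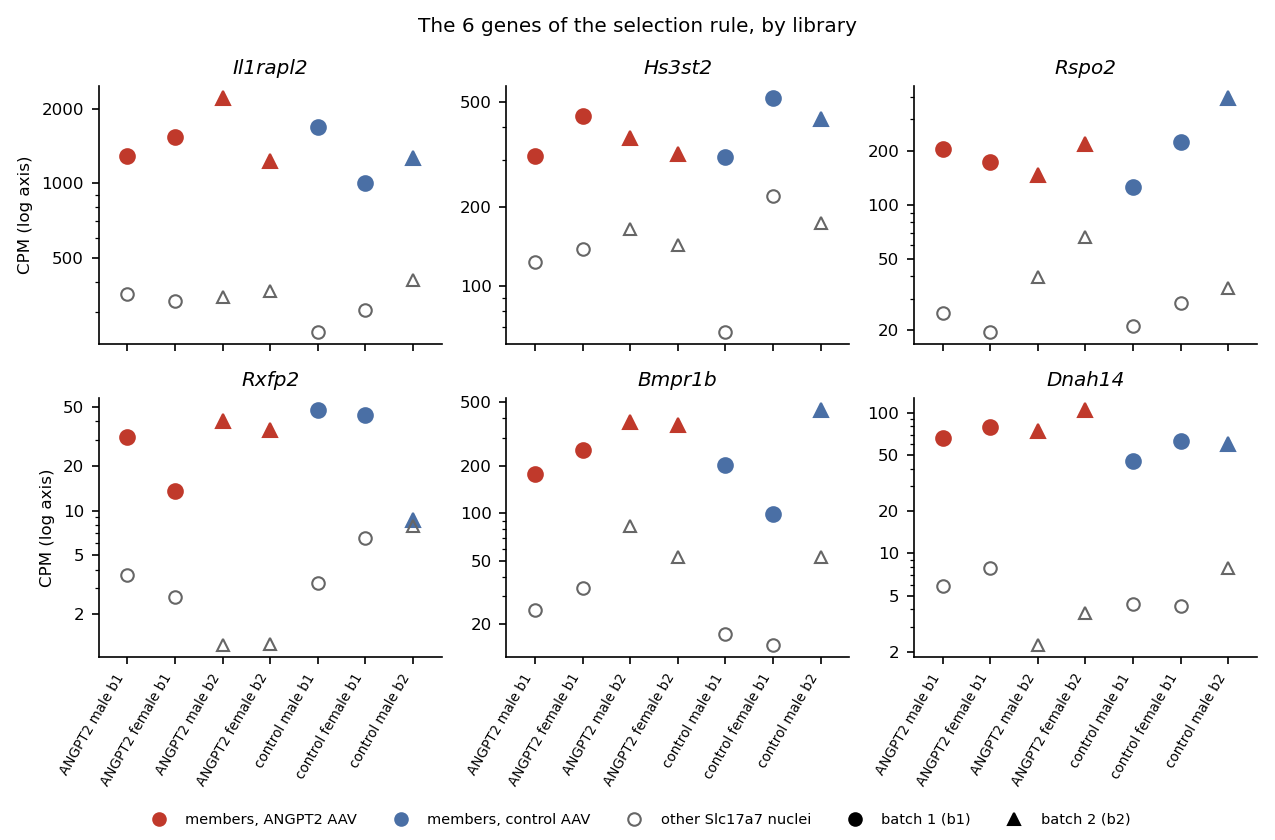
CPM in members (filled) and in other Slc17a7 nuclei (open) of each library, on a log axis, for the 6 genes used to choose the members, with ANGPT2 AAV libraries left of control AAV libraries and batch 2 as triangles. Il1rapl2 in members reached 2218 CPM in the ANGPT2 AAV male of batch 2 and 998 CPM in the control AAV female of batch 1, and the groups overlap.

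Most members sat at the edge of the rule. Within the limits on layer 6 and layer 4/5 genes, 750 nuclei had 3 of the 6 markers, 362 had 4, 103 had 5 and 3 had all 6. The 362 members with 4 markers and the 750 nuclei with 3, just outside, differed in the marker genes by construction. Pooled Rspo2 was 168 CPM with 4 markers and 83.0 CPM with 3, Bmpr1b was 183 and 82.0 CPM, and Il1rapl2 was 1344 and 1218 CPM. Rorb was 75.9 CPM with 4 markers and 133 CPM with 3. The commonest set of markers, Il1rapl2, Hs3st2, Rspo2 and Bmpr1b alone, was seen in 176 members, or 37.6%. With Dnah14 in place of Bmpr1b the set was seen in 73 members, with both in 68, and with Rxfp2 in place of Bmpr1b in 34. Rxfp2 was found in 107 members, Dnah14 in 196 and both in 11. The rule itself keeps this overlap low, since most members hold exactly 4 markers and nearly all hold Il1rapl2, Hs3st2 and Rspo2.

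Beyond the markers of the rule, the members carried a set of adhesion, receptor and matrix genes. Among 3045 genes at 50 CPM or more in members, 297 were above the other Slc17a7 nuclei in all 7 libraries, and among 3147 genes at 50 CPM or more in the others, 380 were below in all 7. The rule sorted the nuclei that give these levels, so they are a description, with no test. Rxfp1, the relaxin receptor, had the highest ratio at 3.24 times (56.9 ± 28.5 CPM in members and 17.6 ± 5.66 CPM in other Slc17a7 nuclei). Zfp804b, a zinc finger gene, stood at 1019 ± 241 CPM in members and 339 ± 74.5 CPM in other Slc17a7 nuclei, and Ntng2, which encodes the axonal adhesion protein netrin-G2, at 126 ± 39.4 CPM in members and 44.97 ± 9.22 CPM in other Slc17a7 nuclei. The alpha-1 adrenergic receptors Adra1b and Adra1a both ranked here, Adra1b at 57.4 CPM in members and 21.2 CPM in other Slc17a7 nuclei and Adra1a at 53.8 CPM in members and 22.1 CPM in other Slc17a7 nuclei. The cannabinoid receptor Cnr1 was at 115 CPM in members and 53.8 CPM in other Slc17a7 nuclei, and Gfra2, the neurturin receptor, at 112 CPM in members and 52.6 CPM in other Slc17a7 nuclei. Matrix and heparan sulfate genes were represented by Col6a1, a collagen VI chain, at 68.3 CPM in members and 23.97 CPM in other Slc17a7 nuclei, and by Sulf1, which removes 6-O-sulfate from heparan sulfate, at 92.7 CPM in members and 42.8 CPM in other Slc17a7 nuclei.

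Further genes among the 20 of highest ratio were Galnt14, Gm32442, Ptprt, Blnk, Cdh13, Dok5, Plcxd3, Sema3e, Sdk1 and Nr4a2, at 2.05 to 2.65 times the level of the others. Ptprt, a receptor tyrosine phosphatase of neurons, stood at 1814 ± 295 CPM in members and 708 ± 257 CPM in other Slc17a7 nuclei. Cdh13, a cadherin anchored in the membrane by lipid, stood at 604 ± 208 CPM in members and 263 ± 70.2 CPM in other Slc17a7 nuclei. Sema3e, a secreted semaphorin that steers axons, was at 260.1 CPM in members and 123 CPM in other Slc17a7 nuclei, and the synaptic adhesion gene Sdk1 at 433 CPM in members and 205 CPM in other Slc17a7 nuclei. At the other end, Synpo2, Glis3, Tshz2, Plekhg1, Kctd8, Adarb2, Igsf11, Htr4, Zfhx3 and Zfp536 had the 10 lowest ratios. Tshz2, a marker of near-projecting neurons, was at 30.3 ± 27.2 CPM in members and 215 ± 116 CPM in other Slc17a7 nuclei, and Adarb2, an RNA-binding protein that is strong in some interneurons, at 77.5 ± 95.8 CPM in members and 501 ± 213 CPM in other Slc17a7 nuclei.

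The label of deep-layer excitatory neurons was checked against lists of defining markers. All 6 layer 6 intratelencephalic markers were above the other Slc17a7 nuclei on average, among them Sulf1, and Osr1 at 5.45 CPM in members and 0.500 CPM in other Slc17a7 nuclei. Of the 7 layer 5 intratelencephalic markers 5 were above, with Deptor, an inhibitor of mTOR, at 67.3 CPM in members and 30.8 CPM in other Slc17a7 nuclei. Of the 6 markers of the claustrum and the layer 6 Car3 type 5 were above, including Nr4a2, a nuclear receptor, at 70.4 CPM in members and 34.3 CPM in other Slc17a7 nuclei, and Oprk1, the kappa opioid receptor, at 21.3 CPM in members and 6.67 CPM in other Slc17a7 nuclei. None of the 6 layer 2/3, 5 layer 4, 6 near-projecting, 6 corticothalamic or 4 layer 6b markers was above, and of 6 detected layer 5 extratelencephalic markers only Npsr1 was. The layer 2/3 markers summed to 318 CPM in all members and 598 CPM in other Slc17a7 nuclei. In members of the Oprk1 and Gnb4 cluster, described below, the pooled sum of the layer 2/3 markers was 1766 CPM. It was 1344 CPM in the upper-layer group, also below. The layer 6 intratelencephalic markers summed to 162 CPM in members, 159 CPM in the layer 6 group described below and 84.9 CPM in other Slc17a7 nuclei. In members of the Rxfp2 and Deptor cluster, also below, their pooled sum was 13.1 CPM. The claustrum and Car3 markers summed to 2983 CPM in members of the Oprk1 and Gnb4 cluster. They summed to 223 and 55.3 CPM in those of the other 2 leading clusters, against 246 CPM in other Slc17a7 nuclei. Several of these lists share genes with the limits of the rule.

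The labelled tissue does not name cortex, yet the members carried markers of cortical layers. None of the 6 thalamic markers was above the others on average. Their sum was 1603 CPM in members and 2072 CPM in other Slc17a7 nuclei, and it reached 2457 CPM in members of the cluster described below by Rxfp2 and Deptor. Most of that sum is the nuclear receptor gene Rora, at 1305 CPM in members and 1530 CPM in other Slc17a7 nuclei. Tcf7l2, a thalamic transcription factor, was at 10.99 CPM in members and 42.99 CPM in other Slc17a7 nuclei, and Prkcd at 2.71 CPM in members and 28.1 CPM in other Slc17a7 nuclei. None of 5 dentate granule markers was above, with Prox1, the granule cell transcription factor, at 6.73 CPM in members and 39.3 CPM in other Slc17a7 nuclei. Of the 5 CA1 markers Mpped1 alone was above, of the 5 CA3 markers 2 were, and their sums were slightly higher in members, at 115 CPM in members and 101 CPM in other Slc17a7 nuclei for CA1 and 326 CPM in members and 308 CPM in other Slc17a7 nuclei for CA3. Of the 6 amygdala markers Rspo2 and Nr2f2 were above, of which Rspo2 belongs to the rule. The brain region that the members came from was not tested. Other cell types were read in the same way. None of the 5 inhibitory, 7 oligodendrocyte, 4 oligodendrocyte precursor or 6 microglial markers was above the other Slc17a7 nuclei, and Gad1 stood at 12.3 CPM in members and 19.7 CPM in other Slc17a7 nuclei. Mbp, the abundant myelin gene, was at 166 CPM in members and 167 CPM in other Slc17a7 nuclei. Of the 7 markers of striatal medium spiny neurons 4 were above, with a sum of 1399 CPM in members and 1198 CPM in other Slc17a7 nuclei, of which the phosphodiesterase gene Pde10a made up 1269 CPM in members and 1082 CPM in other Slc17a7 nuclei. Of the 6 astrocyte and the 6 endothelial markers 3 each were above. Of the 6 mural and fibroblast markers 2 were above, and Acta2 and Col1a1 were at 0 in members. Summed by library, the oligodendrocyte markers spanned 174 to 462 CPM in ANGPT2 AAV libraries, against 249 to 365 CPM in control AAV libraries, and the endothelial markers 1.96 to 15.5 CPM in ANGPT2 AAV libraries, against 2.28 to 10.4 CPM in control AAV libraries. The choroid plexus markers spanned 12.4 to 218 CPM in ANGPT2 AAV libraries, against 48.4 to 64.1 CPM in control AAV libraries, with the female of batch 1 highest, and the part of these transcripts in the results was not tested.

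The members were not of 1 kind. Clustering of all 11751 Slc17a7 nuclei gave 31 clusters, of which 19 held a member, and 3 clusters held 395 members, or 84.4%. The other 73 members were scattered, at most 15 in a cluster, whose leading genes include the myelin gene Mog and in which 97.9% of nuclei were called doublets. The 3 leading clusters held 1260 nuclei, of which 31.3% met the rule. Members were deeper than all nuclei of their cluster in some libraries and not in others. In the largest of them, called here the Bmpr1b and Dnah14 cluster, batch 1 median UMIs were 16168 and 15402 in members of ANGPT2 AAV libraries and 17616 and 14722 in members of control AAV libraries, and in all nuclei of the cluster they were 16136 and 15799.5 in ANGPT2 AAV libraries and 18291 and 14621.5 in control AAV libraries. In batch 2 its members were deeper, at 10007.5 and 7113 in ANGPT2 AAV libraries and 5831 in the control AAV library, against 9304, 6511 and 5083 in all its nuclei. In the Oprk1 and Gnb4 cluster described below, members were deeper in every library with a member except the control AAV male of batch 1. In the Rxfp2 and Deptor cluster the direction varied by library. The leading genes of the clusters include genes of the rule and define them, and the values below describe them with no test.

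The Bmpr1b and Dnah14 cluster held 249 members among 658 nuclei and was led by Dnah14, Bmpr1b, Rxfp1, Arhgap31, Rspo2, Ptprt, Galnt14, Sulf1, Sdk1 and Col6a1, which are ranked against the Slc17a7 nuclei of all other clusters together and are not its alone. Dnah14 was at 71.4 CPM in its members and 198 CPM in members of the Oprk1 and Gnb4 cluster, and Rxfp1 was at 67.4 CPM in its members and 223 CPM in members of that cluster. Its members had 143 CPM of Sulf1 and 97.7 CPM of Col6a1, and little Deptor at 18.9 CPM. The Rxfp2 and Deptor cluster held 102 members among 398 nuclei and was led by Rxfp2, Il1rapl2, Deptor, Tmem91, Prrg1, Utrn, Sulf2, Pde1c, Hs3st2 and Ptprm. Its members had 3187 CPM of Il1rapl2, against 907 CPM in the first cluster, with 252 CPM of Deptor and 133 CPM of Etv1, an ETS transcription factor of layer 5. Sulf1 was at 3.29 CPM there and Dnah14 at 2.19 CPM.

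The Oprk1 and Gnb4 cluster held 44 members among 204 nuclei. Its members had 489 CPM of Gnb4, a G protein beta subunit, 549.8 CPM of Nr4a2, 958 CPM of the synaptic vesicle gene Synpr, 761 CPM of Ntng2 and 216 CPM of Oprk1. In members of the Rxfp2 and Deptor cluster these 5 genes were at 3.29, 7.12, 8.76, 35.6 and 0.548 CPM. Car3 itself was at 9.74 CPM in the 44 members and at 0 in members of both other clusters. The cluster is therefore called claustrum and layer 6 Car3-like, from markers of which Oprk1 and Gnb4 were among its 10 leading genes. It also carried Cux2, a transcription factor best known from upper layers, at 512 CPM, Cux1 at 1082 CPM, and Hs3st4 at 821 CPM. Within single members some of these genes were seen together more often than if they were unrelated, and others less often. Deptor had a UMI in 173 members, Etv1 in 139 and both in 82, where 51.4 would be expected if unrelated. Sulf1 had a UMI in 163 members and met Deptor in 19, where 60.3 would be expected. Gnb4 was seen in 140 members, Oprk1 in 78 and both in 53, where 23.3 would be expected.

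For scale, 3 other groups of excitatory nuclei with no more than 2 of the 6 selection markers were drawn from the same libraries. A layer 6 group of 1213 nuclei had 3 or more of the layer 6 genes that the rule limits, a layer 4/5 group of 968 nuclei had 3 or more of the layer 4/5 genes, and an upper-layer group of 2697 nuclei had Cux2 and 2 or more of Otof, Rasgrf2, Calb1, Stard8 and Cux1. Galnt14, an enzyme that starts O-linked glycosylation and no part of any of these choices, averaged 319 CPM in members, 51.6 CPM in the layer 6 group, 24.5 CPM in the layer 4/5 group and 53.6 CPM in the upper-layer group. Ntng2 averaged 126 CPM in members, 11.9 CPM in the layer 6 group, 35.2 CPM in the layer 4/5 group and 52.8 CPM in the upper-layer group. Sulf1 averaged 92.7 CPM in members, 116 CPM in the layer 6 group, 11.6 CPM in the layer 4/5 group and 16.1 CPM in the upper-layer group, and Col6a1 68.3 CPM in members, 68.2 CPM in the layer 6 group, 2.95 CPM in the layer 4/5 group and 11.6 CPM in the upper-layer group, so the layer 6 group came close to members in these, and Galnt14 and Ntng2 averaged higher in members than in all 3 groups. Bcl11b, a transcription factor of neurons with subcortical targets, averaged 41.8 CPM in members, 179 CPM in the layer 6 group, 13.2 CPM in the layer 4/5 group and 27.7 CPM in the upper-layer group.

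**Figure D2:**
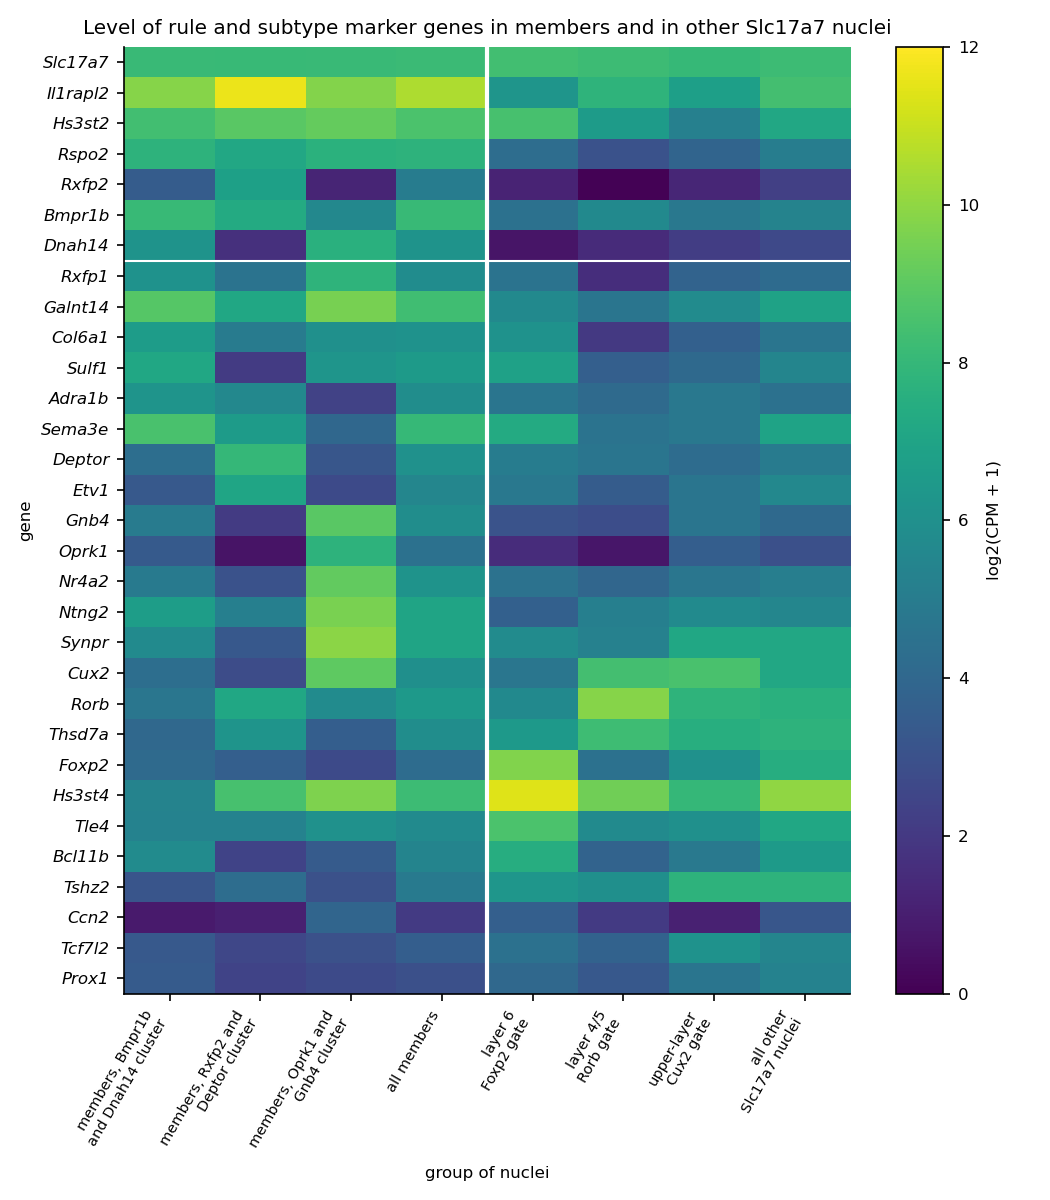
Heat map of log2(CPM + 1) for Slc17a7 and the 6 selection markers (above the line) and further identity genes (below it), in members of the 3 leading clusters and in all members (left of the line), and in 3 other groups of excitatory nuclei and all other Slc17a7 nuclei (right of it). Gnb4, Oprk1, Nr4a2, Ntng2, Synpr and Cux2 are brightest in the Oprk1 and Gnb4 cluster, with Gnb4 at 489 CPM there, 30.9 CPM in the Bmpr1b and Dnah14 cluster and 3.29 CPM in the Rxfp2 and Deptor cluster.

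The 3 clusters were unevenly spread over libraries. In the Bmpr1b and Dnah14 cluster there were 53, 47, 18 and 12 members in ANGPT2 AAV libraries, against 53, 53 and 13 in control AAV libraries. The Rxfp2 and Deptor cluster gave 22, 15, 7 and 3 members in ANGPT2 AAV libraries, against 34, 16 and 5 in control AAV libraries. For the Oprk1 and Gnb4 cluster the numbers were 16, 14, 1 and 2 in ANGPT2 AAV libraries, against 3, 8 and 0 in control AAV libraries. In batch 1 this cluster made up 14.2% and 15.6% of members in ANGPT2 AAV libraries, against 2.86% and 9.09% in control AAV libraries. All nuclei of the cluster, members or not, numbered 40, 70, 11 and 14 in ANGPT2 AAV libraries, against 16, 39 and 14 in control AAV libraries, which is 1.95%, 2.96%, 2.24% and 2.42% of Slc17a7 nuclei, against 0.532%, 1.44% and 2.51%. Sizes of clusters were not tested, because genes that define them also differ between libraries. This unequal make-up moved with several of the gene-level values below, and some of those are given with and without the 44 members of that cluster.

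Members made up a larger share of Slc17a7 nuclei in ANGPT2 AAV libraries on average. The shares were 5.50%, 3.81%, 5.91% and 4.15% in ANGPT2 AAV libraries, against 3.49%, 3.26% and 3.41% in control AAV libraries, and the groups did not overlap. The exact 95% binomial intervals of single libraries overlap, for example 3.07% to 4.66% in the ANGPT2 AAV female of batch 1 and 2.62% to 4.00% in the control AAV female of batch 1, and they cover counting error only. The means were 4.84% ± 1.02 in ANGPT2 AAV libraries (SD, n = 4) and 3.39% ± 0.121 in control AAV libraries (SD, n = 3), a difference of 1.45 percentage points, with p = 0.0571 in a two-sided exact permutation test over libraries. That is the smallest p that this two-sided test allows for 4 libraries against 3, so the test cannot reach 0.05 here. Within batches the difference was 1.28 points in batch 1 and 1.61 points in batch 2, with p = 0.111 when libraries were exchanged only within batches in the exact test, again the smallest possible.

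Other ways of counting changed the size of the difference. With at least 3 markers it was 1.85 points (exact permutation p = 0.171), and with called doublets left out 1.53 points (exact permutation p = 0.0571). Without the 44 members of the Oprk1 and Gnb4 cluster it was 1.11 points (exact permutation p = 0.171). Members of at least 5 markers differed by 0.186 points (exact permutation p = 0.571). The whole Bmpr1b and Dnah14 cluster differed by 0.164 points (exact permutation p = 1.00). Of all nuclei that passed, members were 1.48%, 0.940%, 0.461% and 0.287% in ANGPT2 AAV libraries, against 1.16%, 1.15% and 0.197% in control AAV libraries, where every batch 1 library lay above every batch 2 library. The means were 0.793% ± 0.537 in ANGPT2 AAV libraries (SD, n = 4) and 0.835% ± 0.553 in control AAV libraries (SD, n = 3), with an exact permutation p = 1.00. The difference was 0.0574 points in batch 1 and 0.177 points in batch 2. With nuclei thinned to 3000 UMIs, which left out 33 to 237 shallower nuclei a library and kept 102 to 561 that still met the Slc17a7 limit, members were 0.870% ± 0.299 of Slc17a7 nuclei in ANGPT2 AAV libraries (SD, n = 4) and 0.706% ± 0.464 in control AAV libraries (SD, n = 3), with an exact permutation p = 0.629, on 1 to 6 members a library.

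**Figure D3:**
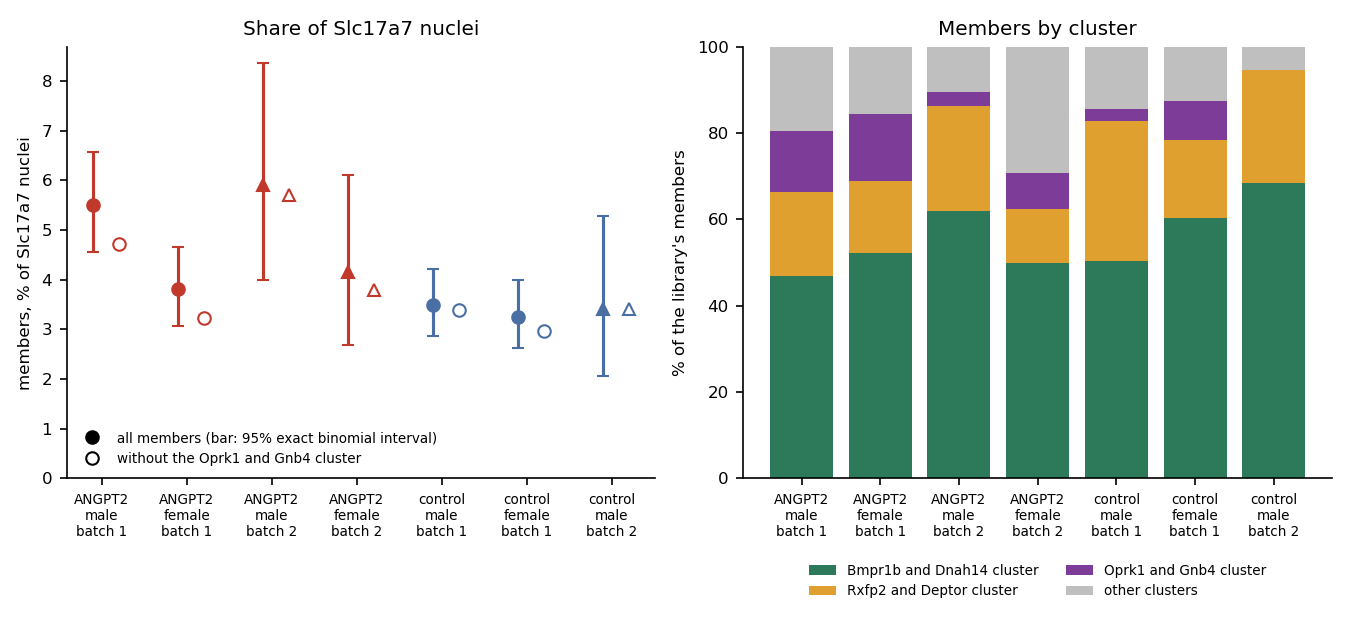
Left, members as a percent of Slc17a7 nuclei in each library, with the exact 95% binomial interval as a bar, open points without the Oprk1 and Gnb4 cluster, and batch 2 as triangles. Right, the members of each library by cluster, in percent. ANGPT2 AAV libraries lie at 3.81% to 5.91% and control AAV libraries at 3.26% to 3.49%, and without the Oprk1 and Gnb4 cluster the groups overlap.

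Gene expression in members was compared between ANGPT2 AAV and control AAV libraries on UMIs summed per library, with edgeR's quasi-likelihood test and Benjamini-Hochberg adjustment over all 9756 genes tested. No gene passed the adjusted threshold of 0.05 (0 genes, 0%). At an unadjusted p under 0.05 there were 582 genes, 5.97% of those tested, 335 of them higher and 247 lower in ANGPT2 AAV libraries. DESeq2 called 2 genes, Olfm3 higher and Blnk lower. For 646 genes, 6.62%, the groups did not overlap in CPM. In the other Slc17a7 nuclei of the same libraries 0 of 17475 genes passed (0%) and 974 had an unadjusted p under 0.05. The genes below have the smallest unadjusted p in each direction, and their adjusted p in this fit was above the threshold.

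Gnb4 had the smallest unadjusted p. Its level in members was 92.95, 97.4, 65.2 and 54.7 CPM in ANGPT2 AAV libraries, against 33.3, 33.4 and 25.8 CPM in control AAV libraries, and every ANGPT2 AAV library lay above every control AAV library. In the ANGPT2 AAV male of batch 2, 14 of 21 UMIs came from 1 nucleus, and the order of libraries without that nucleus was not tested. The control AAV male of batch 2 had 3 UMIs. The log2 change was 1.40 (SE 0.22), with an unadjusted p of 1.13e-05 and adjusted p = 0.111 in edgeR. With batch as a replicate block the adjusted p was 0.0436, which passes. Gnb4 is also a marker of the Oprk1 and Gnb4 cluster, of which the ANGPT2 AAV libraries of batch 1 held more members. Without that cluster its level was 25.97, 25.6, 22.7 and 55.8 CPM in ANGPT2 AAV libraries, against 15.9, 9.91 and 25.8 CPM in control AAV libraries, and the log2 change was 1.04. It was 0.48 over all nuclei of the Bmpr1b and Dnah14 cluster, and 0.05 when members with markers of other cell types were left out, a setting that kept 6 to 27 members a library and lost the control AAV male of batch 1 from the fit. In other Slc17a7 nuclei the log2 change was 0.63. The difference of the changes was 0.36 in a joint fit of members and other nuclei (edgeR adjusted p = 0.998), while the changes of 1.40 and 0.63 come from separate fits. The gene lies at chr3:32580332-32616585 (GRCm38).

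Olfm3, which encodes a secreted olfactomedin, was 525, 578, 376 and 592 CPM in ANGPT2 AAV libraries, against 296, 239 and 215 CPM in control AAV libraries, again with no overlap. Its log2 change was 1.11 (SE 0.19), with adjusted p = 0.169 in edgeR and 0.00964 in DESeq2. The change was 0.36 without the Oprk1 and Gnb4 cluster, and was 0.24 at 5 or more markers. Trhde, an ectoenzyme that degrades thyrotropin-releasing hormone, was 351, 422, 426 and 482 CPM in ANGPT2 AAV libraries, against 253, 235 and 206 CPM in control AAV libraries. The log2 change of Trhde was 0.92 (SE 0.19), and was 0.86 without that cluster, while at 3 or more markers it was 0.49. Cntnap5b, a contactin-associated adhesion gene, differed by 1.10 (SE 0.23) and by 0.80 without the cluster, and Nckap5 by 1.96 (SE 0.39) and by 1.17 without it. Col25a1, a membrane collagen whose shed ectodomain is found in amyloid plaques, was 114, 87.1, 71.5 and 59.7 CPM in ANGPT2 AAV libraries, against 51.1, 25.1 and 60.1 CPM in control AAV libraries. Its log2 change was 1.19 (SE 0.27) with adjusted p = 0.328 in edgeR, and the control AAV male of batch 2 reached the level of ANGPT2 AAV libraries.

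Some of the genes with the largest changes rest on few transcripts. Dcdc2c, a doublecortin-domain gene, had 39 UMIs in all members, of which 37 were in ANGPT2 AAV libraries, and its fitted log2 change was 3.87 (SE 0.87). D5Ertd615e had 62 UMIs and a log2 change of 2.14 (SE 0.50). Lama4, a laminin chain of vascular basement membranes, had 125 UMIs and was 20.1, 19.9, 65.2 and 34.8 CPM in ANGPT2 AAV libraries, against 6.85, 5.57 and 17.2 CPM in control AAV libraries. Its log2 change was 2.09 (SE 0.49), with adjusted p = 0.354 in edgeR and no overlap between the groups. The gene 9530026P05Rik was 25.9, 32.03, 21.7 and 89.5 CPM in ANGPT2 AAV libraries, against 10.04, 6.96 and 17.2 CPM in control AAV libraries. In the ANGPT2 AAV female of batch 2, 13 of its 18 UMIs came from 1 nucleus.

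Among the lower genes, Blnk, an adaptor protein best known from B cells, was 39.6, 43.6, 12.4 and 14.9 CPM in ANGPT2 AAV libraries, against 78.1, 179 and 85.9 CPM in control AAV libraries, with no overlap. Its log2 change was -1.79 (SE 0.34) with adjusted p = 0.268 in edgeR, and DESeq2 called it with adjusted p = 0.0490. In other Slc17a7 nuclei the change was -1.73, close to that in members. A cluster of other Slc17a7 nuclei with Blnk and Anxa4 among its leading genes held 254 nuclei, of which 248 came from the control AAV female of batch 1. The change in other nuclei was not computed without that library. Nrp1, a co-receptor of semaphorins and of vascular endothelial growth factor (VEGF), was 55.3, 71.1, 65.2 and 49.7 CPM in ANGPT2 AAV libraries, against 104, 215 and 137 CPM in control AAV libraries. For Nrp1 the log2 change was -1.28 (SE 0.26) with adjusted p = 0.268 in edgeR, and the control AAV libraries themselves spanned a wide range. Without the control AAV female of batch 1, the highest for both genes, the log2 changes of Blnk and Nrp1 were -1.09 and -0.75. Lifr, the receptor of leukaemia inhibitory factor, differed by -1.34 (SE 0.31), and Adgrd1, an adhesion receptor coupled to G proteins, by -1.25 (SE 0.28), both without overlap. Adgrd1 differed by -0.02 in other Slc17a7 nuclei, and the difference of the changes had adjusted p = 0.0774 in edgeR. Nptx2, described below with the activity-regulated genes, and Snhg1, Gm15283, Dtwd1, Ccsap and Anxa4 completed the 10 lower genes. The last 5 were at log2 changes of -2.20, -2.04, -1.36, -1.04 and -1.94. UMIs of these 5 in all members numbered 44, 65, 87, 408 and 145.

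**Figure D4:**
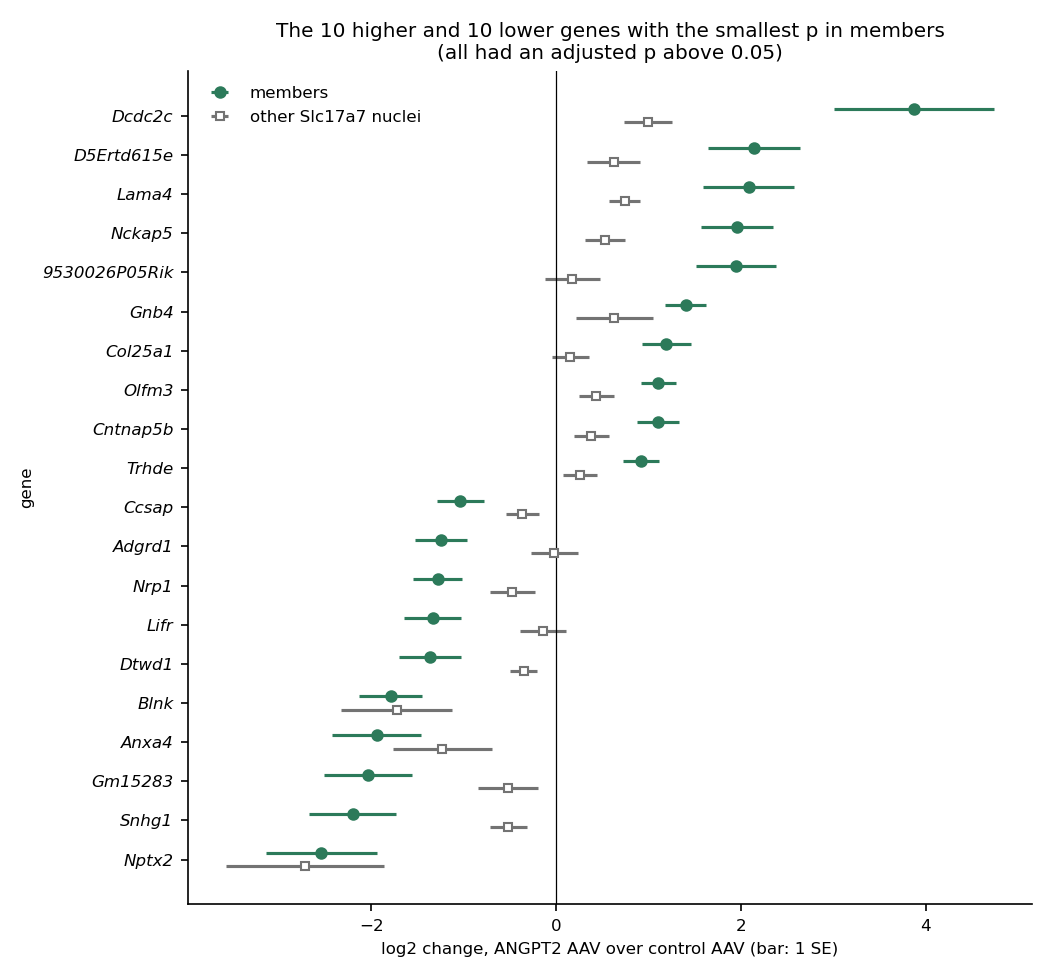
Log2 change, ANGPT2 AAV over control AAV, with a bar of 1 SE, in members (filled circles) and in other Slc17a7 nuclei (open squares) for the 10 higher and 10 lower genes of smallest unadjusted p in members. Blnk and Nptx2 had like changes in both sets of nuclei, at -1.79 and -2.54 in members and -1.73 and -2.72 in the others, while Adgrd1 was at -1.25 in members and -0.02 in the others.

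Of the angiopoietin pathway, Angpt2, Tek and Tie1 were scarce in members, while Angpt1 and integrin genes were detected. Angpt2 itself had 23 UMIs in all and was too low to be tested, at 2.45, 1.28, 3.11 and 0 CPM in ANGPT2 AAV libraries, against 4.11, 4.18 and 0 CPM in control AAV libraries, and the groups overlap. Whether reads of the vector are counted under this gene was not tested. Angpt1, the ligand that activates TIE2, was 50.4, 54.5, 21.7 and 59.7 CPM in ANGPT2 AAV libraries, against 27.4, 18.8 and 34.4 CPM in control AAV libraries. Its log2 change was 1.04 (SE 0.28) with adjusted p = 0.454 in edgeR, and by batch it was 1.17 in batch 1 and 0.07 in batch 2. Tek, the gene of TIE2, had 17 UMIs, Tie1 had 1, and Angpt4 was at 0. The integrin genes Itgb1 and Itgav, which encode alternative receptors of angiopoietin-2, differed by -0.31 (SE 0.27) and -0.28 (SE 0.27). Of 5 VEGF ligands and receptors tested, 2 were higher and 3 lower in ANGPT2 AAV libraries, Nrp1 among the lower.

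Pathway lists were read as counts of higher and lower genes, beside 4841 higher and 4915 lower among all 9756 genes tested and a median log2 change of -0.003 over all of them. No gene of any list passed the adjusted threshold in this fit. The activity-regulated genes, which neurons transcribe within minutes to hours of firing, were mostly lower. Of 22 tested, 4 were higher and 18 lower, with a median log2 change of -0.60, and 8 had an unadjusted p under 0.05. In other Slc17a7 nuclei 3 were higher and 27 lower, with a median of -0.96. Without the control AAV female of batch 1 the median in members was 0.14, the opposite direction. The change in other Slc17a7 nuclei was not computed without that library. It gave 467 of the 483 nuclei of a cluster whose leading genes include Inhba and Ptgs2, and 2 nuclei of that cluster were members. The part of this 1 library in the changes of the other nuclei was not tested. Npas4, a transcription factor induced by calcium entry, was 3.91, 10.9, 0 and 0 CPM in ANGPT2 AAV libraries, against 4.11, 102 and 25.8 CPM in control AAV libraries. Nptx2, a secreted pentraxin that gathers AMPA receptors, was 12.7, 14.7, 6.21 and 19.9 CPM in ANGPT2 AAV libraries, against 16.9, 146 and 68.7 CPM in control AAV libraries. In the control AAV male of batch 2 Npas4 had 3 UMIs and Nptx2 had 8, of which 6 came from 1 nucleus. Inhba, an activin subunit, differed by -1.69 (SE 0.61), and Arc, which traffics AMPA receptors, by -1.34 (SE 0.52). Without the control AAV female of batch 1 the log2 changes of Npas4 and Arc were 0.20 and 0.19, and that of Nptx2 was -0.63.

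Axon guidance and synaptic adhesion genes leaned the other way. Of 33 tested, 29 were higher and 4 lower, with a median log2 change of 0.30, and in other Slc17a7 nuclei 26 were higher and 7 lower. Robo1, a receptor of Slit ligands, differed by 0.96 (SE 0.33), and Cntn6, a contactin, by 0.85 (SE 0.29). Mitochondrially encoded genes were all higher, 11 of 11, with a median of 0.49, and so were 13 of 13 in other Slc17a7 nuclei. Those of smallest p were mt-Atp8 at 0.86 (SE 0.33) and mt-Nd2 at 0.72 (SE 0.30). In nuclei these transcripts come from outside the nucleus, and their part in the other values was not tested.

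The pathways of the selection markers were compared next. Of 15 R-spondin and Wnt genes tested, 13 were higher and 2 lower, with a median of 0.13. In other Slc17a7 nuclei 14 were higher and 11 lower. Lgr5, a receptor of R-spondins, was 16.1, 24.3, 80.8 and 24.9 CPM in ANGPT2 AAV libraries, against 8.67, 5.57 and 34.4 CPM in control AAV libraries. The fitted log2 change was 1.82 (SE 0.59), and the ANGPT2 AAV male of batch 2 lay far above the rest. Gsk3b, the kinase that Wnt signalling restrains, differed by 0.52 (SE 0.18) without overlap. Of 22 heparan sulfate genes, 8 were higher and 14 lower, with Sulf1 at -1.04 (SE 0.29) and the sulfotransferase gene Hs3st5 at 1.03 (SE 0.32). Sulf1 in members was 44.5, 65.99, 77.7 and 59.7 CPM in ANGPT2 AAV libraries, against 79.9, 166 and 155 CPM in control AAV libraries, with no overlap, and in other Slc17a7 nuclei its log2 change was -0.02. Without the control AAV female of batch 1 the log2 change of Sulf1 in members was -0.58. Of 18 genes of bone morphogenetic protein and TGF-beta signalling, 7 were higher and 11 lower, and Tgfb2 differed by -1.39 (SE 0.59). All 3 tested genes of the interleukin-1 receptor family were higher, with Il1rap at 0.50 (SE 0.21) and Il1rapl1 at 0.38 (SE 0.21). Rxfp1, the only tested gene of the relaxin family, differed by 0.80 (SE 0.31). It was higher in members of the Oprk1 and Gnb4 cluster than in those of the Bmpr1b and Dnah14 cluster. Its change without the Oprk1 and Gnb4 cluster is not given here. In batch 2 Rxfp1 had 11 of 321892 and 9 of 201135 UMIs in ANGPT2 AAV libraries, against 6 of 116398 in the control AAV library. Both ANGPT2 AAV libraries of batch 2 were thus at a lower level than that control. None of these genes passed the adjusted threshold.

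Channels and receptors were more often higher than lower in members, and mostly so in other Slc17a7 nuclei. In those, potassium channel genes counted 16 higher and 10 lower, sodium and calcium channel genes 13 and 6, and GABA-A receptor genes 12 and 2. Kainate and metabotropic receptor genes counted 7 higher and 5 lower there, and AMPA and NMDA receptor genes 7 and 9. Of 26 potassium channel genes, 17 were higher and 9 lower, and Kcnh7 and Kcnt2 were higher without overlap at 0.62 (SE 0.22) and 0.54 (SE 0.20). Of 14 AMPA and NMDA receptor genes, 10 were higher and 4 lower, with Grin3a at 1.51 (SE 0.44) and Gria4 at 0.66 (SE 0.21). Of 19 sodium and calcium channel genes, 14 were higher and 5 lower, and of 13 GABA-A receptor genes, 10 were higher and 3 lower. Of 11 kainate and metabotropic glutamate receptor genes, 8 were higher and 3 lower, while among 22 presynaptic release genes 10 were higher and 12 lower. Neuropeptide genes and their receptors counted 13 higher and 8 lower of 21, and Oprk1, a marker of the Oprk1 and Gnb4 cluster, was 53.8, 24.98, 12.4 and 14.9 CPM in ANGPT2 AAV libraries, against 12.3, 13.2 and 17.2 CPM in control AAV libraries.

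Stress and housekeeping lists were counted in the same way. Unfolded protein response genes counted 5 higher and 11 lower of 16, and glucocorticoid response genes 2 higher and 7 lower of 9, among them Fkbp5, a chaperone of the glucocorticoid receptor, at -0.91 (SE 0.31). Heat shock genes counted 3 higher and 6 lower of 9, and cholesterol synthesis genes 11 higher and 8 lower of 19. Circadian clock genes counted 8 higher and 10 lower of 18. That list includes Rorb, which the rule limits, so its part in the count is a description only. Genes of amyloid processing and Alzheimer risk counted 10 higher and 12 lower of 22, of which Bin1, an endocytic adaptor, had the smallest p at a log2 change of -0.30 (SE 0.18). Cytosolic ribosomal protein genes counted 30 higher and 43 lower of 73, with Rpl10 at -1.01 (SE 0.37). Few immune genes were high enough to test, with interferon response genes at 1 higher and 3 lower of 4 and MHC class I genes at 1 higher and 2 lower of 3. Neurotrophin and neuregulin genes counted 4 higher and 4 lower of 8.

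For 8 genes the change between groups differed between members and other excitatory neurons. The test asked whether the ANGPT2 AAV against control AAV change in members differed from that in other Slc17a7 nuclei of the same libraries, with library as a block. Of 12014 genes tested, 8 passed the adjusted threshold, 0.0666%, and in all 8 the change was more positive in members, while 576 genes, 4.79%, had an unadjusted p under 0.05. On simulated counts this test made more false calls than its threshold allows. The 8 calls are Cux2, 9530026P05Rik, Smoc2, Arhgap24, Col25a1, Sash1, Tll1 and Gm34567.

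Cux2 in members was 103, 98.02, 43.5 and 84.5 CPM in ANGPT2 AAV libraries, against 14.6, 72.4 and 17.2 CPM in control AAV libraries. In other Slc17a7 nuclei it was 129.7, 178, 102 and 94.5 CPM in ANGPT2 AAV libraries, against 116, 262 and 139 CPM in control AAV libraries. The log2 change was 1.16 in members and -0.43 in the others, a difference of 1.74 (SE 0.26, adjusted p = 0.0146) by edgeR. The control AAV female of batch 1 overlapped the ANGPT2 AAV libraries in members. In members Smoc2, a matrix-associated calcium-binding protein, was 41.1, 27.5, 18.6 and 39.8 CPM in ANGPT2 AAV libraries, against 7.30, 27.2 and 0 CPM in control AAV libraries, and the difference of log2 changes was 2.01 (SE 0.33, adjusted p = 0.0146). In members Arhgap24, a GTPase-activating protein of Rac, was 16.1, 20.5, 12.4 and 24.9 CPM in ANGPT2 AAV libraries, against 5.94, 8.36 and 0 CPM in control AAV libraries, without overlap, and its difference was 1.96 (SE 0.35, adjusted p = 0.0373). These levels of Arhgap24 rest on 33, 32, 4 and 5 UMIs in ANGPT2 AAV libraries, against 13, 12 and 0 in control AAV libraries. Sash1, a signalling scaffold, differed by 1.49 (SE 0.27, adjusted p = 0.0373), and 9530026P05Rik by 2.01 (SE 0.32, adjusted p = 0.0146).

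Col25a1 differed by 1.18 (SE 0.21, adjusted p = 0.0373), with log2 changes of 1.19 in members and 0.15 in the others. In members Tll1, a secreted protease of the BMP1 family, was 27.9, 10.9, 31.1 and 44.7 CPM in ANGPT2 AAV libraries, against 9.59, 55.01 and 0 CPM in control AAV libraries. In other Slc17a7 nuclei it was 13.7, 11.1, 17.6 and 14.01 CPM in ANGPT2 AAV libraries, against 13.2, 111 and 13.3 CPM in control AAV libraries. The control AAV female of batch 1 was highest in both sets of nuclei. In members the log2 change of Tll1 was -0.23 and in the others -1.81, a difference of 1.68 (SE 0.31, adjusted p = 0.0373). Without the control AAV female of batch 1 Tll1 did not pass, with adjusted p = 0.537 in edgeR. Gm34567 had 98 UMIs in members and differed by 2.63 (SE 0.50, adjusted p = 0.0399).

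These 8 calls moved with the make-up of the members. Cux2 was at 512 CPM in members of the Oprk1 and Gnb4 cluster and at 19.2 and 6.02 CPM in those of the Bmpr1b and Dnah14 and of the Rxfp2 and Deptor clusters. Without the 44 members of the Oprk1 and Gnb4 cluster 0 genes passed. Cux2 was then 27.1, 20.3, 12.97 and 39.1 CPM in ANGPT2 AAV libraries, against 9.36, 42.7 and 17.2 CPM in control AAV libraries, and its log2 change in members was 0.02, while that of Sash1 was 1.30 and that of Col25a1 0.99. With batch as a replicate block 5 genes passed, of which Cux2, 9530026P05Rik, Smoc2 and Col25a1 were among the 8, and Col11a1 was not. In the libraries of batch 1 alone, 0 genes passed. Leaving out a single library gave 0 to 26 calls, with 0 without the control AAV male of batch 1, the ANGPT2 AAV male of batch 1 or the ANGPT2 AAV female of batch 2, and 26 without the control AAV female of batch 1. Without the control AAV female of batch 1, Tll1 and Col25a1 no longer passed (edgeR adjusted p = 0.537 and 0.158), while the rest of the 8 did. A change within cells of a type and a change in the mix of types cannot be told apart in these sums.

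**Figure D5:**
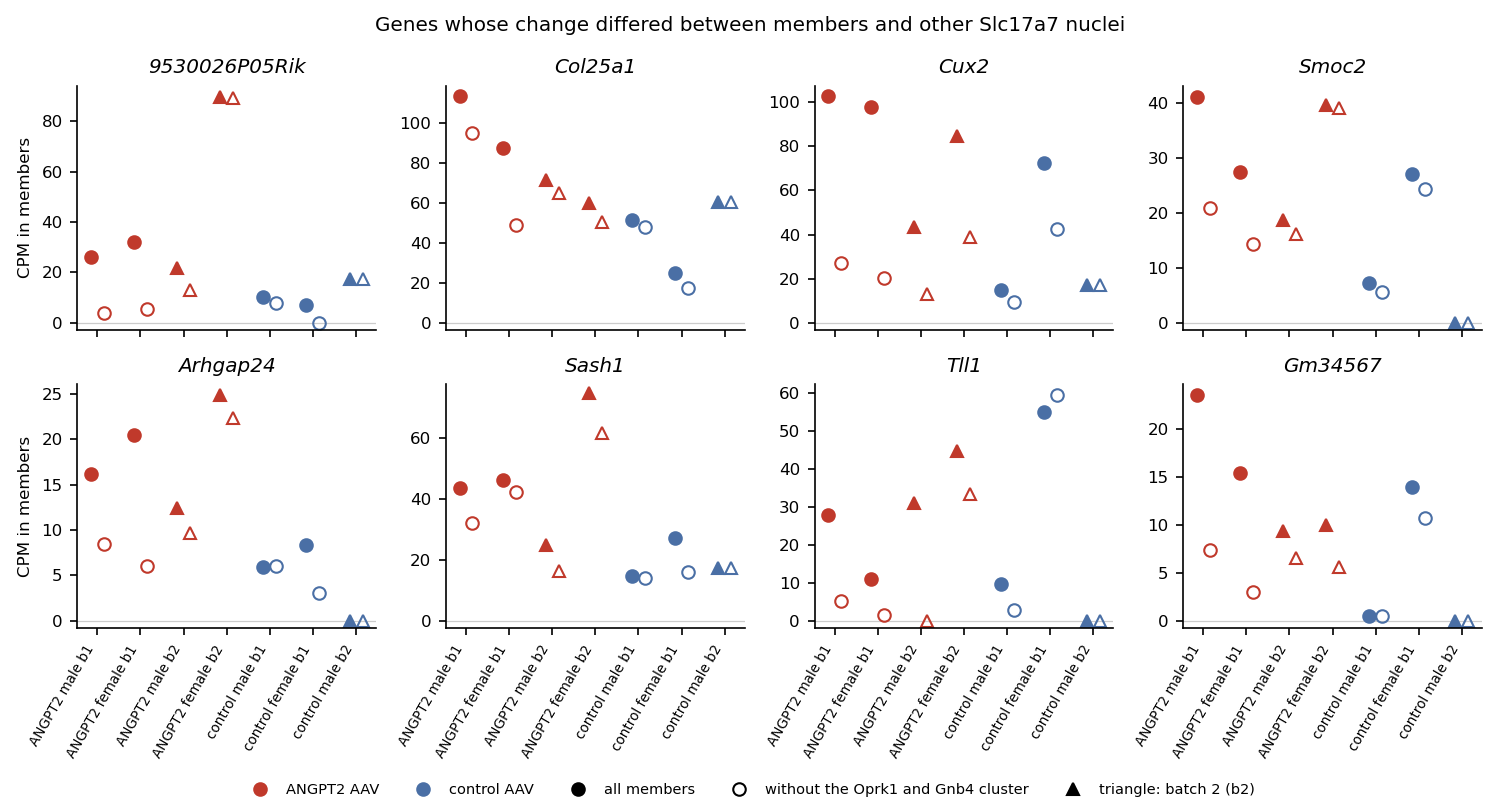
CPM in members of each library for the 8 genes whose change in members differed from that in other Slc17a7 nuclei, with all members as filled points and members outside the Oprk1 and Gnb4 cluster as open points, and batch 2 as triangles. Cux2 in batch 1 was 103 and 98.02 CPM in ANGPT2 AAV libraries with that cluster, and 27.1 and 20.3 CPM without it.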

How the data were processed

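The values are UMI counts, not normalized, as deposited by the authors, made with Cell Ranger 6.1.2 on mm10 (GRCm38), per the submitters' processing notes. Barcodes with at least 300 genes and under 5% mitochondrial UMIs were kept, 58169 of 58286. Called doublets stayed in, with removal as an alternative. They were called per library from the 50 nearest neighbours among 2 simulated doublets a nucleus, at a rate that scaled with the number of nuclei. The Slc17a7 nuclei were clustered on 2000 variable genes, 30 components and 15 neighbours with leidenalg 0.10.2 at resolution 1.

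UMIs were summed per library, which is the replicate, with at least 10 members each, and CPM computed from the sums. edgeR 4.0.16 (quasi-likelihood test, TMM factors, filterByExpr with minimum count 10 and total 15, treatment as the only term) gave the log2 changes, ANGPT2 AAV over control AAV, and DESeq2 1.42.0 was an alternative. SE is the log2 change divided by the root of F. Members against other Slc17a7 nuclei were compared in 1 fit with library as a block. Differences of log2 changes come from that joint fit, with its own gene filter and TMM factors. Both fits were tested on simulated data, and the current quasi-likelihood method was chosen over edgeR's earlier one because the earlier one made more false calls there. Shares were compared by exact permutation over the 35 arrangements of libraries. Values by batch are differences of mean log2(CPM + 1). The two-sided test doubles the smaller tail, so its smallest p is 0.0571 and not 1 in 35.

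The 10 genes of smallest p in each direction, up to 4 a pathway list, and the angiopoietin genes could be named, and for identity the 20 highest and 10 lowest ratios at 50 CPM or more, the same way in every library. The rule, the members, the lists and the tests were chosen with earlier results of these data known. The labels' batch number pairs libraries across groups. Deviations of same-batch libraries correlated at -0.00511 to 0.129, and those of different batches at -0.0964 to 0.0365. P-values measure the spread between mice within this study only. Some genes are not reported here.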

Additional observations from a re-analysis of the deposited data

Results flagged for a closer look

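For 3 named genes 1 ANGPT2 AAV library lay apart from the rest of its group, about as often as chance gives. Several genes changed differently in members and in other Slc17a7 nuclei. In 55 sets of 4 ANGPT2 AAV libraries, the gap of the highest or the lowest library to the next was divided by the range, and the larger ratio was taken. It passed the 95% critical value of Dixon's test in 3, or 5.45%, where chance alone gives about 1 in 20. In all 3 it was the highest library. For 9530026P05Rik the ratio was 0.848, with the ANGPT2 AAV female of batch 2 highest at 89.5 CPM, where 13 of 18 UMIs came from 1 nucleus. For Lgr5 it was 0.865, with the ANGPT2 AAV male of batch 2 at 80.8 CPM, where 12 of 26 UMIs came from 1 nucleus. For Kcnh7, a potassium channel gene, it was 0.918, with the ANGPT2 AAV male of batch 2 at 2314 CPM and the other ANGPT2 AAV libraries at 1607 to 1666 CPM.

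Members and other Slc17a7 nuclei differed in log2 change, as fitted jointly, for Cux2 by 1.74, 9530026P05Rik by 2.01, Smoc2 by 2.01 and Arhgap24 by 1.96. They also did so for Col25a1 by 1.18, Sash1 by 1.49, Tll1 by 1.68 and Gm34567 by 2.63, and all passed the test. Tll1 in members also moved opposite ways in the sexes, which was not tested. ANGPT2 AAV males had 27.9 and 31.1 CPM, against 9.59 and 0 CPM in control AAV males, a difference of mean log2(CPM + 1) of 3.23. All 10 UMIs of the ANGPT2 AAV male of batch 2 came from 1 nucleus. In the control AAV male of batch 1, 11 of 21 UMIs came from 1 nucleus. ANGPT2 AAV females had 10.9 and 44.7 CPM, against 55.0 CPM in the control AAV female, where 23 of 79 UMIs came from 1 nucleus.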

How the results depend on the processing

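The comparison of members gave 0 genes in 15 other settings. It gave 2 with DESeq2, 94 with no low-count filter, 1 (Gnb4) with batch as a replicate block, 1 (Ptgs2, lower) with sex as a covariate, 1 (Gnb4) with the replicate block and sex together, and 1 (Npsr1) with called doublets left out. Leaving out single libraries gave 0 to 17 genes. Without the control AAV male of batch 1 there were 17, 14 of them lower, and without the control AAV female of batch 1 there were 9, all higher. The comparison of members with other Slc17a7 nuclei, 8 genes in the chosen setting, gave 28 with edgeR's earlier method, 5 with the replicate block, 54 with no low-count filter, 21 with called doublets left out, 0 in batch 1 alone and 0 without the Oprk1 and Gnb4 cluster, and 0 to 26 without single libraries. The earlier method, batch 1 alone and the setting without that cluster were chosen after seeing the data. The causes of these moves were not tested. The member share of all nuclei that passed differed by -0.0424 points, and by -0.361 to 0.126 without single libraries, so its direction turned in 4 of them. The share of Slc17a7 nuclei differed by 1.10 to 1.80 points without single libraries, the direction kept in all 7. At 3000 UMIs the thinned share differed by -0.0975 to 0.345 points without single libraries, by -0.125 points at 2000 UMIs and by -0.821 points at 5000 UMIs. Exchange within batches as a replicate block gave permutation p-values of 0.556 for the share of all nuclei, 0.111 for that of Slc17a7 nuclei and 0.778 for the thinned share. In single genes, the difference of Tll1 between members and other nuclei turned to -0.24 without the Oprk1 and Gnb4 cluster, Npas4 ranged from -3.81 to 0.20 and Arc from -2.04 to 0.19 over single libraries left out, with the turn without the control AAV female of batch 1, Itgb1 to 0.058 and Il1rapl1 to -0.060 at 5 or more markers, and Itgav to 0.0023 and Oprk1 to -0.034 in the Bmpr1b and Dnah14 cluster. The setting of 5 or more markers left only the 4 libraries of batch 1. Medians of the lists moved by more than the spread between libraries in 43 pairs of a list and a setting and by less in 566. Depth limits what batch 2 can show, since its members sum to 116398 to 321892 UMIs a library.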
